A study of Rattus norvegicus with 3 samples.

Results

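The ribosomal protein genes of the rat were followed through early postnatal testis, as 66 cytosolic and 24 mitochondrial members. Members were chosen by name: a probe set entered where its RefSeq accession carried a current rat symbol beginning with Rpl or Rps and a number, Rplp0 to Rplp2 or Rpsa (cytosolic), or with Mrpl or Mrps and a number (mitochondrial). The rule found 93 of 26419 probe sets. 3 of them, Rps6ka1, Rps6kb1 and Rps6kb2, encode protein kinases and no ribosomal protein. They are described apart and enter no ribosomal median. Each member had 1 probe set, 92 of the 93 on a curated accession and 1, Rpl17l5, on a predicted one.

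Whole testes of Wistar-Imamichi rats were taken on postnatal days 6, 8 and 10, with the day of birth counted as day 1, and total RNA of each day was read on a one-colour NimbleGen array, 3 arrays in all. The labels state no treatment, and the rats were of the same stock at every age. They do not say how many animals gave each RNA. Each day had 1 array, so the effects of age, of the animals and of the array cannot be told apart, no test was possible, and each difference below is a description of these 3 arrays. In whole tissue, fewer cells of a type and less RNA per cell cannot be told apart.

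A ribosome has a small subunit, which reads the messenger RNA, and a large subunit, which joins amino acids. Cytosolic ribosomes make nearly all proteins of the cell, and the messenger RNAs of their own proteins typically begin with a run of pyrimidines, the terminal oligopyrimidine tract, through which mTOR signalling controls their translation. Mitochondria hold a ribosome of their own for the few respiratory chain proteins encoded in mitochondrial DNA. Its proteins are encoded in the nucleus, made in the cytosol and imported.

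The stretches around the annotated starts of the 5 cytosolic and 5 mitochondrial members with the largest day 10 against day 6 differences, among those with a promoter entry, are shown because the pyrimidine tract is the known sequence mark of cytosolic ribosomal protein messenger RNAs. Each runs 5′ to 3′ from 40 bases before the start to base 20 from it, after RefSeq, build GRCr8. A pyrimidine run is a C followed by at least 4 C or T. Capitals mark it from the C nearest the start, where such a C lies within 10 bases of the start, to its last pyrimidine. In Rps14 and Rps21 the pyrimidines also reach farther upstream than the capitals.
Rps14, chr18:56498220-56498279, plus strand: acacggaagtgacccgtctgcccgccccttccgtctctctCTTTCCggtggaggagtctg
Rps21, chr3:187723998-187724057, plus strand: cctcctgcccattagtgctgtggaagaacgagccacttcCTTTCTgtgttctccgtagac
Rps7, chr6:50999426-50999485, minus strand: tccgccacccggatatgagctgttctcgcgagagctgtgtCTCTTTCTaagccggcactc
Rpl10, chrX:157205810-157205869, plus strand: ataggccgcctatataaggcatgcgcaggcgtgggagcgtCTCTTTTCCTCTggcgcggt
Rpl36al1, chr6:93392239-93392298, minus strand: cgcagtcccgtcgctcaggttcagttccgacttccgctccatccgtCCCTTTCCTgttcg
Mrpl2, chr9:21834588-21834647, minus strand: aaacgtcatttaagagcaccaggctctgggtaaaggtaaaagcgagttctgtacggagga
Mrpl23, chr1:207116890-207116949, plus strand: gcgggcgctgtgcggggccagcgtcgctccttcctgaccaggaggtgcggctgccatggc
Mrps25, chr4:126237193-126237252, minus strand: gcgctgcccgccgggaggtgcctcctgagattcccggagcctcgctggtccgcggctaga
Mrps33, chr4:69566919-69566978, minus strand: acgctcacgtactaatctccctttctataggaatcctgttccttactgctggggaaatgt
Mrpl34, chr16:18186407-18186466, plus strand: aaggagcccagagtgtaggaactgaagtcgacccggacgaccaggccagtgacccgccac
Each of the 5 cytosolic stretches has a run beginning within 10 bases of the start, and none of the 5 mitochondrial ones does, although some hold a run farther upstream.

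Over the whole table of 19005 protein-coding promoters, 2.44% had the run at the annotated start itself. Among the cytosolic members 21 of the 53 with an entry had it (39.6%, exact 95% binomial interval 26.5 to 54.0), among the mitochondrial members 0 of 18 (upper bound of the interval 18.5%), and among the kinases 0 of 3. With a start anywhere within 10 bases the shares were 77.4% of cytosolic members, 27.8% of mitochondrial members and 28.2% of all promoters. The run was common in cytosolic members, while the mitochondrial share was close to that of all promoters.

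Other short motifs were searched on both strands of the 300 bases from 250 before to 50 after the start. CCGGAAG, an ETS factor motif, was in 30.2% of cytosolic promoters, 22.2% of mitochondrial promoters and 11.2% of all promoters. AAGATGGC, a YY1 motif, was in 9.43% of cytosolic promoters, 27.8% of mitochondrial promoters and 3.92% of all. It can share the letters AAG with CCGGAAG. GCGCATGCG, an NRF1 motif, was in 1.89% of cytosolic, 16.7% of mitochondrial and 2.03% of all promoters. TATAAA was in 9.43% of cytosolic, 11.1% of mitochondrial and 13.1% of all promoters, and the GC box GGGCGG in 54.7% of cytosolic, 61.1% of mitochondrial and 43.1% of all. With 18 mitochondrial promoters these shares are coarse: the exact 95% interval of the YY1 share runs from 9.69% to 53.5%. Such matches describe letters and do not show a factor at work.

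The arrays were alike in a random-sequence control, at intensities of 25.0, 24.6 and 25.6 on days 6, 8 and 10. The array medians were 220, 221 and 203. By another measure of background, the 95th percentile of olfactory and vomeronasal receptor probe sets, day 10 was higher. Its log2 values were 5.699, 5.597 and 6.110 on the 3 days. Whether this affected the differences of the members was not tested. A comparison took every gene that exceeded the floor, the array median, on either of its arrays. Of all genes tested, 8.57% were at least 2-fold higher and 12.8% at least 2-fold lower on day 10 than on day 6. Of these changed genes 59.9% were lower, a share that median centring of the arrays moved to 49.8%. Median centring also moved the median difference of all genes between days 10 and 6 to 0.14, against 0.02 as deposited. It shifts every gene alike, so the place of the members among all genes stayed as it was.

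Markers of the labelled tissue were present. On days 6, 8 and 10, the germ cell helicase Ddx4 had log2 intensities of 11.17, 11.15 and 11.33. The Sertoli cell hormone Amh had 11.32, 11.15 and 10.60, and the Leydig cell enzyme Cyp17a1 had 14.01, 13.78 and 12.78. All lay above the floors of 7.78, 7.79 and 7.67. The summed intensity of 6 germ cell markers (of 7 listed) was 14637, 16946 and 20317 over the 3 days, and their median log2 difference between days 10 and 6 was 0.85, with 5 of 6 positive. The sum over 8 of 9 Sertoli cell markers was 60842, 69126 and 55598. The 6 Leydig cell markers summed to 27599, 25050 and 11955, with Lhcgr under the floor on every day, and 3 of 5 endothelial markers to 5293, 5479 and 2323. Skeletal muscle markers summed to 669, 499 and 2842, with Ckm and Myl1 under the floor throughout. From day 6 to day 10 the sum of 4 of 5 macrophage markers went from 6139 to 7427. That of 5 erythroid markers went from 67524 to 75501 and that of 4 adipose markers from 644 to 712. The sum of 4 of 5 peritubular markers went from 66102 to 60796. Germ cell, macrophage, erythroid, adipose and skeletal muscle sums were thus higher on day 10, as the ribosomal medians below were in the deposited values. Sertoli, Leydig, endothelial and peritubular sums were lower. A sum follows its brightest genes, and markers of 1 list did not all go the same way. Of the markers above the floor, 4 of 8 Sertoli, 1 of 5 Leydig, 0 of 3 endothelial and 1 of 4 peritubular ones were higher on day 10. So were 3 of 4 macrophage, 3 of 5 erythroid, 1 of 2 adipose and 3 of 3 skeletal muscle markers. Adipoq and Fabp4 were under the floor on every day. The germ cell marker Sycp3 was lower (log2 difference -0.61). The part of these cell types in the results was not tested.

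All 93 members were above the floor on all 3 days. Between days 10 and 6 both ribosomal groups lay higher on day 10 in the deposited values, the mitochondrial one by more over all members. Among 7 cytosolic and 8 mitochondrial members of overlapping intensity, cytosolic minus mitochondrial was 0.18. These are the dimmest cytosolic and the brightest mitochondrial members, and in both groups dimmer members differed more, so they cannot settle the order. Between log2 intensities of 12 and 14 the medians were 0.42 (22 cytosolic) and 0.44 (8 mitochondrial). The 66 cytosolic members had a median log2 difference of 0.23 (17.6%; range -0.14 to 0.84), which turned to -0.10 once the trend with gene length described below was subtracted. It was 0.14 under cyclic loess scaling. The 24 mitochondrial members had a median of 0.58 (49.8%; range 0.06 to 1.21), and 0.35 after that subtraction. The median of all 13955 genes tested was 0.02. The difference was positive for 61 of 66 cytosolic and 24 of 24 mitochondrial members, against 51.3% of all genes.

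Few members passed the 2-fold threshold of the submitters' design. No cytosolic member and 1 mitochondrial member, Mrpl2, was at least 2-fold higher on day 10 than on day 6, against 8.57% of all genes, and none was 2-fold lower, against 12.8%. At 1.5-fold, 8 cytosolic and 12 mitochondrial members were higher, against 20.4% of all genes. None was 1.5-fold lower, against 23.7%. The cytosolic share at 1.5-fold was below that of all genes and the mitochondrial share above it. For scale, log2 differences of probe sets of the same gene had a median SD of 0.210 within this comparison (66 genes), a spread that holds no variation between animals or arrays.

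**Figure D1:**
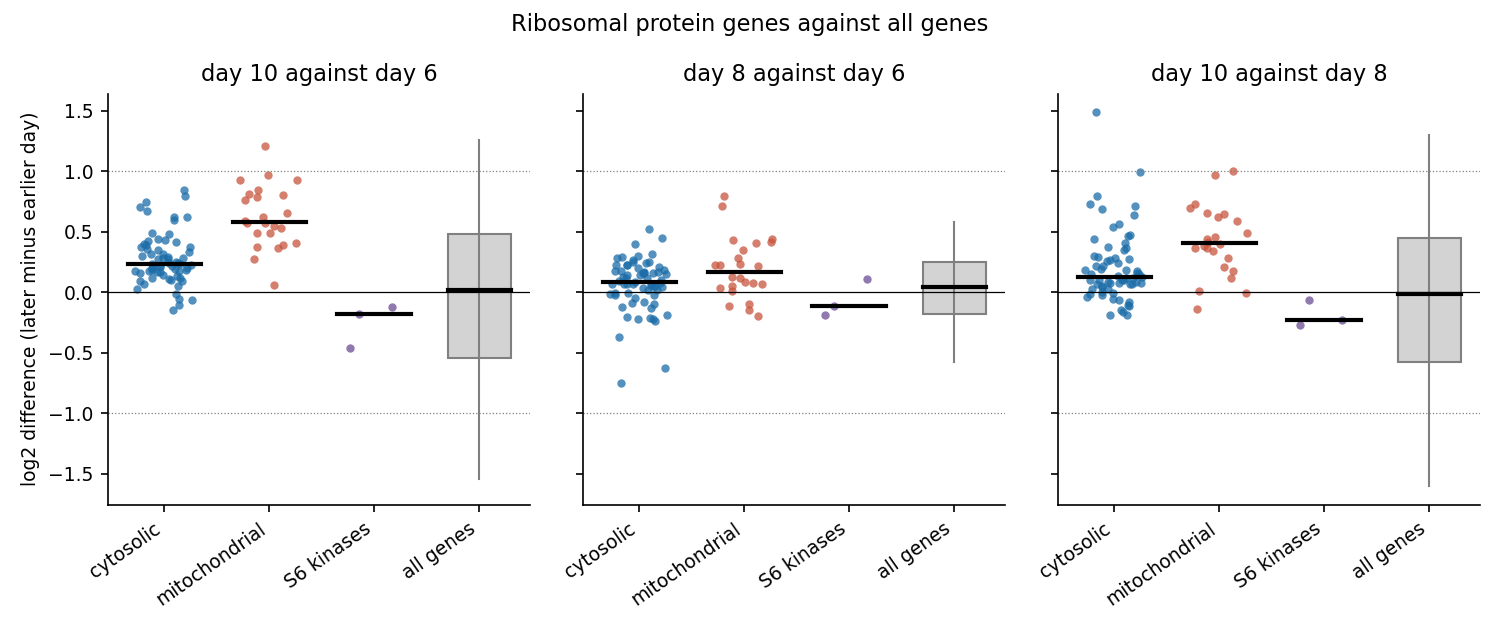
Log2 differences (later minus earlier day) of 66 cytosolic ribosomal protein genes, 24 mitochondrial ones and 3 S6 kinases in each comparison, 1 point per gene with the group median as a bar. The grey box gives the quartiles and median of all genes above the floor, its line the 5th to 95th percentile, and dotted lines mark 2-fold. The cytosolic and mitochondrial medians between days 10 and 6 were 0.23 and 0.58 (-0.10 and 0.35 with the gene length trend subtracted).

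In the plot of differences by comparison, the mitochondrial median sits above the cytosolic one in all 3 panels, by 0.35, 0.09 and 0.28. Among the few members of overlapping intensity that order was the opposite in both comparisons with day 10. Those were the dimmest cytosolic and the brightest mitochondrial members. The 3 comparisons share arrays in pairs and are not independent of each other.

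Among the 27 small subunit proteins of the cytosolic ribosome the median difference between days 10 and 6 was 0.29, with 25 positive, and -0.04 with the gene length trend subtracted. Rps14, a protein of the platform of the small subunit, had log2 intensities of 12.85, 13.06 and 13.69 on days 6, 8 and 10, a day 10 against day 6 difference of 0.84 (1.80-fold). Rps21 had 13.02, 13.10 and 13.81, a difference of 0.79 (1.73-fold). In both genes days 6 and 8 lay close together and day 10 lay above them.

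Rps7, which is also known to bind the p53 regulator Mdm2, had log2 intensities of 11.75, 11.00 and 12.49 on days 6, 8 and 10. Day 8 was the lowest of the 3 days and day 10 the highest. The gene rose 2.80-fold on day 10 against day 8 (log2 difference 1.49), and the day 10 against day 6 difference was 0.74. It was the one cytosolic member past 2-fold in any comparison. Rps15 had 13.18, 13.70 and 13.80, with day 8 already near day 10.

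Rps6, the substrate of S6 kinase, had 14.29, 14.46 and 14.68, a difference of 0.39 between days 10 and 6. At the other end stood Rpsa, also known as the laminin receptor precursor, with 15.22, 15.20 and 15.12 (-0.10). It was highest on day 6 and lowest on day 10, over a narrow range.

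The 33 large subunit proteins had a median of 0.17 between days 10 and 6, with 30 positive, and -0.13 with that trend subtracted. Rpl10, a late-joining protein of the large subunit encoded on the X chromosome, had log2 intensities of 12.58, 12.56 and 13.28 on the 3 days (0.70 between days 10 and 6). Rpl36 had 12.86, 13.31 and 13.48 (0.62). Rpl9 had 12.85, 13.11 and 13.45 (0.60). Rpl10 was flat up to day 8, while Rpl36 and Rpl9 had intermediate values there.

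Rpl29 had 14.36, 14.38 and 14.22 (-0.14), the lowest cytosolic difference between days 10 and 6. Rpl32 had 14.91, 14.72 and 14.85 (-0.06). Rpl5, which carries a ribosomal RNA into the large subunit and binds Mdm2, had 14.49, 14.36 and 14.48 (-0.01). For these genes the 3 days stayed within a narrow band.

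The brightest cytosolic probe sets included Rpl41, a very short basic peptide, with 15.04, 15.11 and 15.07. Rpl18 had 14.92, 15.07 and 14.97. Brightness of different probe sets does not give an order of abundance. The top of the scale was near, since the brightest probe set of any gene reached 15.69, 15.65 and 15.73 on days 6, 8 and 10.

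The stalk, a flexible arm of the large subunit that recruits elongation factors, is built from Rplp0, Rplp1 and Rplp2. Rplp0 had log2 intensities of 15.07, 15.11 and 15.35. Rplp1 had 13.79, 13.98 and 14.13. Rplp2 had 14.49, 14.78 and 14.84. All 3 were lowest on day 6 and highest on day 10, with differences between those days of 0.28, 0.34 and 0.36. Their median was 0.34, and -0.06 with the gene length trend subtracted.

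3 members carry paralog symbols in the current annotation. Rpl36al1 had 12.59, 12.47 and 13.26 (0.67 between days 10 and 6), and Rpl37l1 had 14.59, 14.71 and 14.81 (0.22). Rpl17l5 had 12.99, 12.37 and 13.36, and its day 10 against day 8 difference of 0.996 lay just short of 2-fold. Cytosolic ribosomal protein genes have many near-identical copies and processed pseudogenes in mammalian genomes, so the signal of any cytosolic member may be shared with a copy. Rpl17, the gene after which Rpl17l5 is named, also had a probe set, with 14.07, 13.70 and 14.14. Both were lowest on day 8 and highest on day 10, and their day 10 against day 6 differences were 0.37 for Rpl17l5 and 0.07 for Rpl17.

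**Figure D2:**
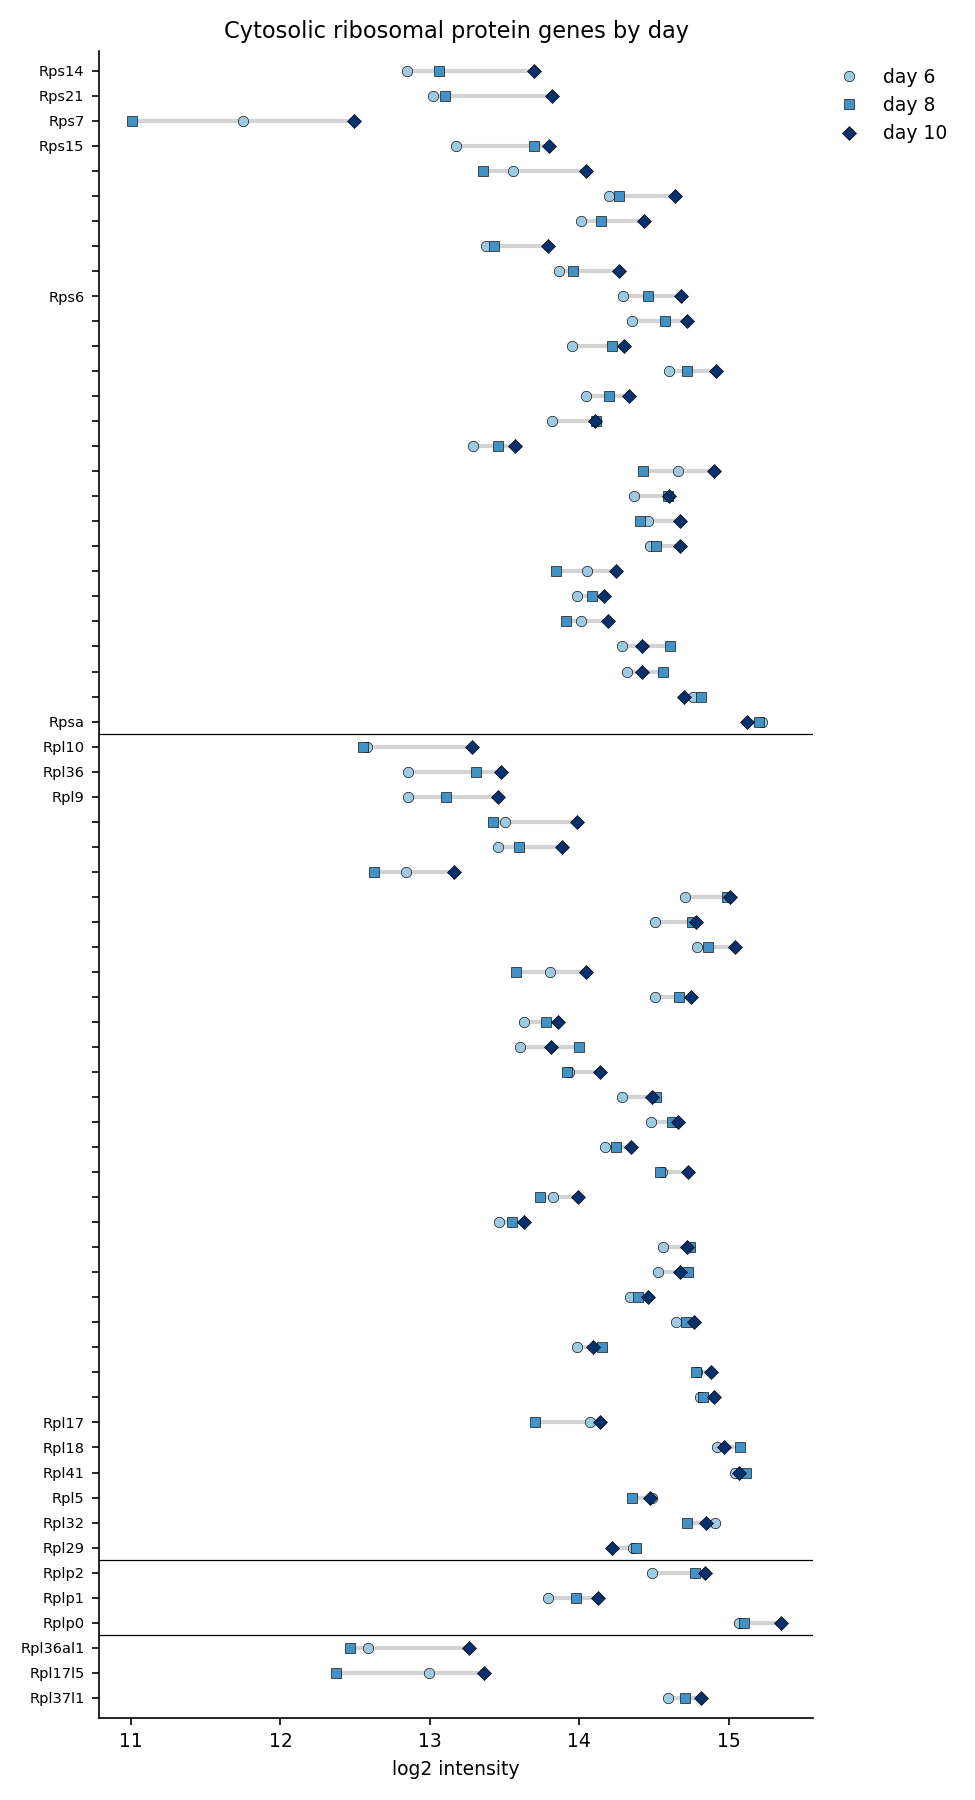
Log2 intensity (x axis) of each cytosolic ribosomal protein gene on days 6 (circle), 8 (square) and 10 (diamond), 1 array per day, in blocks for the small subunit, the large subunit, the stalk and the paralog symbols, ordered within a block by the day 10 minus day 6 difference, with labels on genes described in the text. Day 10 was the highest day for 51 of 66 genes in the deposited values, and Rps7 had the widest range.

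Day 10 was the highest of the 3 days for 51 of the 66 cytosolic genes (77.3%), day 8 for 12 and day 6 for 3. Among all 14137 genes above the floor on any day, day 10 was the highest for 43.0%. The plot of cytosolic levels also shows that the genes lay closer together on day 10, with an SD of log2 intensity across genes of 0.71, 0.78 and 0.56 on days 6, 8 and 10.

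The mitochondrial genes were dimmer, with a median log2 intensity of 11.22, 11.58 and 11.80 on days 6, 8 and 10, compared with 14.19, 14.25 and 14.38 for the cytosolic genes. On those days 59, 61 and 65 of the 66 cytosolic members lay above the 95th percentile of the array, and 2, 1 and 3 of the 24 mitochondrial members did.

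The 8 mitochondrial genes named for the small subunit had a median difference of 0.66 between days 10 and 6, all positive. With the gene length trend subtracted it was 0.35, again with 8 positive. Mrps24 had log2 intensities of 11.33, 11.56 and 12.25 on the 3 days (0.92 between days 10 and 6, 1.90-fold). Mrps25 had 11.20, 11.64 and 12.12 (0.92). Mrps33 had 11.80, 12.23 and 12.64 (0.85). All 8 were lowest on day 6 and highest on day 10, against 30.7% and 43.0% of all genes above the floor on any day.

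Mrps26, the dimmest mitochondrial probe set by its mean over the 3 days, had 9.63, 9.76 and 10.41 (0.78). Mrps22 had 11.24, 11.25 and 11.61 (0.38). Mrps18a, whose protein sits in the large subunit of the mammalian mitochondrial ribosome despite its symbol, had 13.00, 13.08 and 13.36 (0.36). Days 6 and 8 were close in these 3 genes, and day 10 was above both.

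Among the 16 genes named for the large subunit the median was 0.58, all positive. With the gene length trend subtracted it was 0.35, with 14 positive. Mrpl2, a protein near the peptidyl transferase centre, had 9.58, 9.82 and 10.79 on days 6, 8 and 10. It rose 2.31-fold on day 10 against day 6 (log2 difference 1.21), and its day 10 value stood apart from both earlier days. Mrpl23, at the exit of the peptide tunnel, had 10.70, 11.05 and 11.67 and came next at 0.97 (1.96-fold), just under the threshold.

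Mrpl47 had 10.53, 10.33 and 11.33, and rose 2.00-fold on day 10 against day 8, just inside the threshold. Mrpl34 had 10.82, 11.62 and 11.63, with its whole difference present by day 8 (0.80). Mrpl12, a stalk protein also known to bind the mitochondrial RNA polymerase, had 10.61, 10.83 and 11.20 (0.59 between days 10 and 6). The day on which the difference appeared thus varied between members.

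Mrpl19 had 9.80, 9.84 and 10.57 (0.76). Mrpl16 had 12.20, 12.27 and 12.86 (0.66). Mrpl41 had 12.74, 12.83 and 13.23 (0.49). In each of these 3 genes day 8 lay nearer to day 6 than to day 10. Mrpl17 had 13.09, 12.94 and 13.15, with the lowest mitochondrial difference between days 10 and 6 (0.06). Mrpl13 had 12.19, 12.08 and 12.46 (0.27). Mrpl37 had 12.33, 12.54 and 12.72 (0.39). Mrps12 was not matched and is not analysed here.

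**Figure D3:**
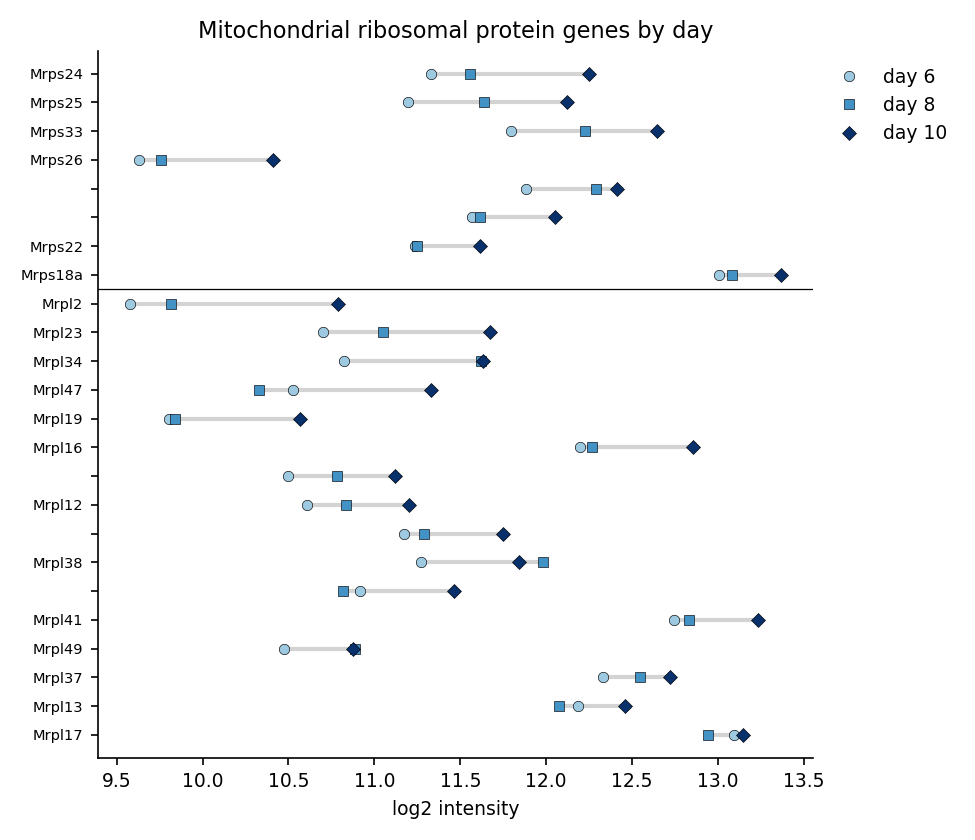
Log2 intensity (x axis) of each mitochondrial ribosomal protein gene on days 6 (circle), 8 (square) and 10 (diamond), 1 array per day, with the genes named for the small subunit above the line and those named for the large subunit under it, and labels on genes described in the text. Day 10 was the highest day for 22 of 24 genes, and Mrpl2 had the largest difference between days 10 and 6 (1.21).

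Day 10 was the highest day for 22 of the 24 mitochondrial genes (91.7%) and day 8 for Mrpl38 and Mrpl49, as the plot of mitochondrial levels shows. Mrpl38 had 11.27, 11.98 and 11.84, and Mrpl49 had 10.47, 10.88 and 10.88. No mitochondrial gene was highest on day 6.

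In the deposited values days 8 and 6 lay closer together, by the median of the gene differences in both groups, than either did to day 10. By its median log2 intensity (11.22, 11.58 and 11.80 on days 6, 8 and 10) the mitochondrial group had day 8 nearer to day 10. For the cytosolic group the order of the median differences depended on the scaling. Under cyclic loess its median was 0.08 for day 8 against day 6 and 0.05 for day 10 against day 8. Under quantile scaling it was 0.09 in both. The cytosolic median of day 8 against day 6 was 0.08, with 46 of 66 positive, and the mitochondrial median was 0.17, with 20 of 24 positive, against 0.04 and 55.3% for all 13496 genes. With the gene length trend subtracted these group medians were 0.002 (34 of 66 positive) and 0.07 (15 of 24 positive). No member was 2-fold higher, against 0.519% of all genes, or 2-fold lower, against 0.978%. At 1.5-fold, Mrpl34 (0.80) and Mrpl38 (0.71) were higher, against 4.91% of all genes, and Rps7 (-0.75) and Rpl17l5 (-0.62) were lower, against 4.79%.

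On day 10 against day 8 the cytosolic median was 0.13, with 53 of 66 positive, and -0.10 with the gene length trend subtracted. Scaling moved it to 0.25 (62 positive) under median centring, 0.09 under quantile scaling and 0.05 (41 positive) under cyclic loess. The mitochondrial median was 0.41, with 22 of 24 positive, and the median of all 13969 genes was -0.01, with 49.4% positive. Rps7 and Mrpl47 were at least 2-fold higher, against 8.56% of all genes, and no member was 2-fold lower, against 13.7%. At 1.5-fold, 7 cytosolic and 8 mitochondrial members were higher, against 19.1% of all genes, and none was lower, against 24.8%.

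On day 10 against day 6 the cytosolic median lay below the mitochondrial one over all members, but above it among the members whose intensities overlap between the groups. The cytosolic minus mitochondrial values over all members were -0.35 for day 10 against day 6, -0.09 for day 8 against day 6 and -0.28 for day 10 against day 8. Of the 66 cytosolic genes, 8, 19 and 12 lay above the mitochondrial median in those comparisons. The share of all genes above those medians was not counted, so these counts have no background beside them. The overlap runs from the dimmest cytosolic to the brightest mitochondrial member by mean log2 intensity, 12.12 to 13.18 for day 10 against day 6. Within it 7 cytosolic members had a median of 0.62 and 8 mitochondrial members 0.44, a cytosolic minus mitochondrial value of 0.18. For day 10 against day 8 that value was 0.40 (5 and 12 members), and for day 8 against day 6 it was -0.27 (7 and 12 members). A trend of the difference with mean intensity over all genes was also subtracted, a setting chosen after seeing the data. Over all members the cytosolic minus mitochondrial value was then -0.40 for day 10 against day 6. It was -0.05 for day 8 against day 6 and -0.33 for day 10 against day 8. The order of the groups between days 10 and 6 thus stayed under that subtraction and was opposite among the members of overlapping intensity. The overlap holds the dimmest cytosolic and the brightest mitochondrial members. In both groups dimmer members differed more between those days, so the overlap cannot settle the order.

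**Figure D4:**
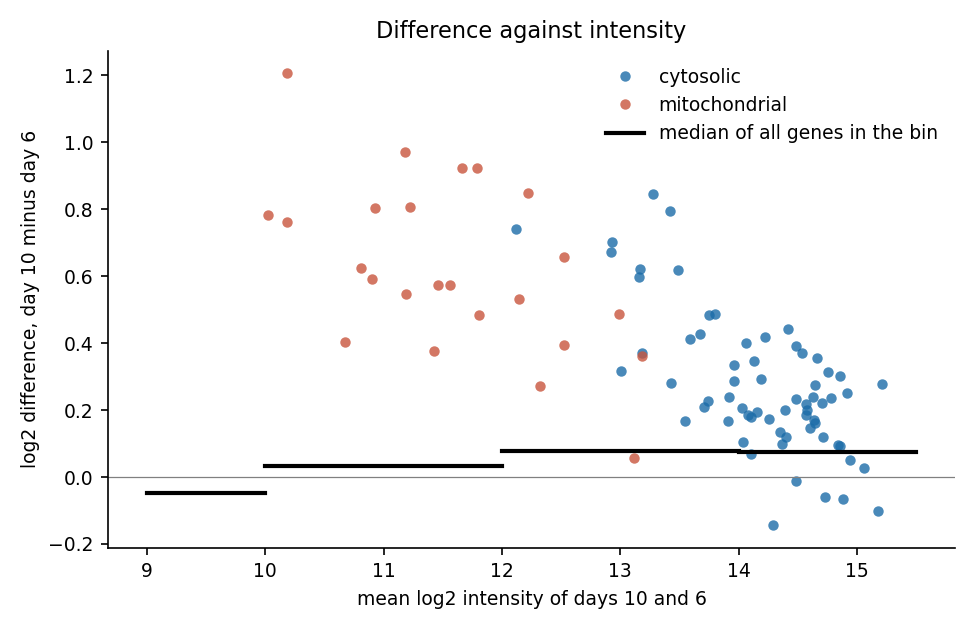
Log2 difference (day 10 minus day 6) against the mean log2 intensity of days 10 and 6 for 66 cytosolic and 24 mitochondrial ribosomal protein genes, 1 point per gene, with the median of all genes in each intensity bin as a black line. Between 12 and 14 the cytosolic median was 0.42 and the mitochondrial median 0.44, and the 44 cytosolic genes above 14 had a median of 0.19.

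As the plot of difference against intensity shows, dimmer members differed more between days 10 and 6. The 44 cytosolic genes of mean log2 intensity 14 or more had a median of 0.19 (all 388 genes there 0.07), and the 22 between 12 and 14 had 0.42 (all 2597 genes there 0.08). The mitochondrial median was 0.44 between 12 and 14 (8 genes) and 0.69 between 10 and 12 (16 genes, all 5147 genes there 0.03). In the bin from 12 to 14, which holds members of both groups, the medians were nearly equal. Spearman's rho of the difference with mean intensity was -0.58 over the 66 cytosolic genes, -0.50 over the 24 mitochondrial genes and 0.05 over all 13955 genes. Genes of 1 pair of arrays are not independent, and the difference and the mean come from the same values. Whether the scale of the arrays compresses at its bright end was not tested.

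Gene length moved with the differences as well. Over 5518 named genes the day 10 against day 6 difference had a Spearman's rho of -0.43 with the genomic span of the gene, introns included. Within the groups it was -0.17 over the 66 cytosolic and -0.29 over the 24 mitochondrial genes. The ribosomal protein genes are short, with median spans of 3.19 kb (cytosolic) and 5.96 kb (mitochondrial). With a lowess trend on log10 span subtracted, 21 of 66 cytosolic and 22 of 24 mitochondrial differences were positive. The cytosolic minus mitochondrial value was then -0.45. The positive cytosolic median thus held for the deposited values and not after this subtraction, and what links span and difference on these arrays was not tested.

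The 3 kinases caught by the naming rule were at their lowest on day 10. On days 6, 8 and 10 Rps6ka1, a kinase of the MAP kinase pathway, had log2 intensities of 9.78, 9.59 and 9.32. Rps6kb1, the main S6 kinase under mTOR, had 10.52, 10.41 and 10.34. Rps6kb2, its close relative, had 11.12, 11.23 and 11.00. The differences between days 10 and 6 were -0.46, -0.18 and -0.12, all short of 1.5-fold. With the gene length trend subtracted that of Rps6kb1 turned to 0.14.

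Ribosomal proteins with other names were read from a list. Fau, which encodes a small subunit protein fused to a ubiquitin-like one, had 14.62, 14.93 and 14.77 on days 6, 8 and 10. Rack1, a scaffold on the small subunit, had 14.58, 15.00 and 14.94. Their differences between days 10 and 6 were 0.15 and 0.36, and both were highest on day 8. Of 6 listed mitochondrial proteins 2 were found, Dap3 with 12.65, 12.93 and 12.75 (0.10) and Aurkaip1 with 11.47, 11.73 and 12.07 (0.61).

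Genes that build ribosomes or work with them differed by list between days 10 and 6, and 1 gene of the lists passed 2-fold there. Among all genes tested 8.57% were at least 2-fold higher, 12.8% at least 2-fold lower and 51.3% positive. Of 73 listed ribosome biogenesis genes 40 were found, with a median of 0.18 and 29 positive. Ddx21, a nucleolar helicase, had 10.66, 10.98 and 9.67, the largest difference of that list (-0.99) and just short of 2-fold. RNA polymerase I, which transcribes ribosomal RNA, and its factors had 7 of 17 genes found, a median of 0.35 and 6 positive, with Polr1h, one of its smaller components, at 10.78, 10.83 and 11.71 (0.92).

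Of 32 mitochondrial translation factors and assembly genes 16 were found, with a median of 0.35 and 13 positive. Mterf3, which acts in mitochondrial ribosome assembly, had 8.23, 8.38 and 8.90 (0.67). Of 49 cytosolic translation factors 31 were found, with a median of -0.10 and 13 positive. Eef1a2, the elongation factor form known from muscle and nerve, had 8.47, 7.99 and 9.25 (0.79), the largest difference of the list.

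Of 16 genes of the mTOR pathway and regulators of messenger RNAs with the tract 11 were found, with a median of -0.26 and 5 positive, which turned to 0.12 and 6 positive with the gene length trend subtracted. Eif4ebp2, a repressor of cap-dependent translation, had 11.85, 11.79 and 10.70 and fell by 2.22-fold on day 10 against day 6 (log2 difference -1.15). It was the gene of these lists past 2-fold in that comparison.

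**Figure D5:**
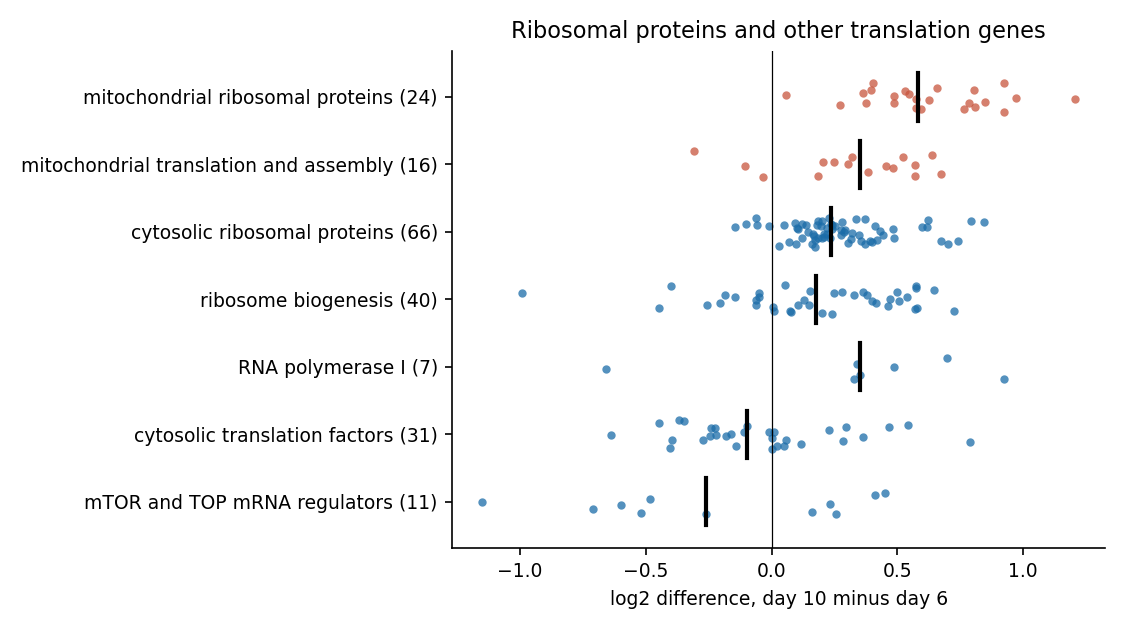
Log2 difference (day 10 minus day 6) of each gene of 7 lists, 1 point per gene with the list median as a bar and the number of genes in parentheses. The medians were 0.58 for mitochondrial and 0.23 for cytosolic ribosomal proteins (-0.10 for the cytosolic ones with the gene length trend subtracted), -0.10 for cytosolic translation factors and -0.26 for mTOR regulators (0.12 with that trend subtracted).

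In the plot of the lists, the mitochondrial translation genes (median 0.35) lie to the right with the mitochondrial ribosomal proteins. The RNA polymerase I genes (0.35) do so too, and the ribosome biogenesis genes (0.18) lie less far to the right. The cytosolic translation factors spread around 0.

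The pyrimidine run was set beside the differences. On day 10 against day 6 the 21 cytosolic genes with the run at the annotated start had a median of 0.28, all positive, and the 32 without it had 0.23, with 29 positive. The medians were 0.07 and 0.07 on day 8 against day 6, and 0.24 and 0.11 on day 10 against day 8. Single genes ran from 0.07 to 0.84 with the run and from -0.14 to 0.79 without it between days 10 and 6, so the sets overlapped. Whether their medians differ was not tested.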

How the data were processed

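Total RNA of whole rat testis was labelled with Cy3 and read on 1 NimbleGen array per day (days 6, 8 and 10), with groups taken from the labelled collection time. The authors deposited 1 linear intensity per RefSeq accession and array, made with RMA per the submitters' processing notes. The sources used here give no RMA version or settings and no genome build. RMA draws the arrays' distributions together, so a shift common to most genes cannot be seen. A standard error column, per the file headers, was not used, and the intensities of the deposited series table equalled those of the array files (largest difference 0).

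Intensities were taken to log2 (Python 3.11.15, numpy 2.4.6, pandas 2.3.3, scipy 1.17.1). Accessions without version were named through the RefSeq gene table of GRCr8, used for symbols, spans and promoter sequences. Of 26419 probe sets 9747 had 1 symbol, 16672 none and 0 several. A probe set with no symbol may still measure a gene, and ribosomal proteins among them could not be found. Several probe sets of a symbol were averaged. The floor was the higher of the array median and the 95th percentile of 1239 olfactory and vomeronasal receptor probe sets, which was the median on each array. Genes at 2-fold or more were counted as changed, after the submitters' design text. With 1 array per day no p-value was computed, and the number of arrays limits the precision.

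Members and lists were chosen with earlier results of these data known. Genes named were those changed 2-fold in any comparison, the 5 highest and 5 lowest day 10 against day 6 differences, the 5 brightest and 3 dimmest of each group, the stalk proteins, Rpsa, Rps6, Mrpl12, Mrps12, the S6 kinases and, of each list, genes changed 2-fold or else the largest difference. Rpl36, Rps15, Rpl9, Rpl17, Rpl17l5, Rpl37l1, Mrpl34, Mrpl38, Mrpl49, Fau, Rack1, Dap3, Cyp17a1, Ddx4 and Amh were added after their values were seen. Some genes that the rule names are not reported here. Alternatives were other floors, median centring, quantile and cyclic loess scaling (limma 3.58.1, R 4.3.3), lowess trends on log10 span or intensity (statsmodels 0.14.6, fraction 0.3, 3 iterations), the brightest probe set, curated accessions only, a 1.5-fold threshold and members left out. The summaries were tested on simulated data.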

Additional observations from a re-analysis of the deposited data

How the results depend on the processing

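Of 225 alternative values for the medians, counts and group differences, 66 could not change by construction: both other floors and the brightest probe set, since all members lay above the floor with 1 probe set each, and median centring for the group differences. Of the other 159, 135 kept their direction and stayed within their tolerance, 20 moved and 4 reversed. Tolerances were the median SD between probe sets of the same gene (0.210 for day 10 against day 6, 0.157 for day 8 against day 6, 0.251 for day 10 against day 8) for medians and 1.5 times for counts. The tolerance was larger than the value itself for the cytosolic medians of day 8 against day 6 (0.08) and day 10 against day 8 (0.13). The same held for the group difference of day 8 against day 6 (-0.09). Such values could shrink almost to nothing and still count as kept, as the first did at 0.002 with the span trend subtracted.

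Subtracting the span trend turned the cytosolic median to -0.096 both for day 10 against day 6 and for day 10 against day 8, with 21 and 25 of 66 positive. It lowered the mitochondrial median of day 10 against day 6 to 0.355 and left 0 mitochondrial genes at 2-fold in both comparisons. Among members in the intensity range both groups share, chosen after seeing the data, cytosolic minus mitochondrial was 0.18 (day 10 against day 6), 0.40 (day 10 against day 8) and -0.27 (day 8 against day 6). The cause was not tested.

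Counts at 2-fold rest on single genes. Median centring gave 4 mitochondrial genes for day 10 against day 6, and 2 mitochondrial and 2 cytosolic genes for day 10 against day 8. Quantile scaling, cyclic loess and the intensity trend, the last chosen after seeing the data, each gave 2 mitochondrial genes there. Also chosen after seeing the data, leaving out Rps7 gave 0 cytosolic genes for day 10 against day 8, and leaving out Mrpl2 gave 0 mitochondrial genes for day 10 against day 6. At 1.5-fold, the counts for day 10 against day 6, day 8 against day 6 and day 10 against day 8 were 8, 2 and 7 cytosolic and 12, 2 and 8 mitochondrial genes, since the threshold is lower.

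No paired analysis was possible because each day had 1 array and the labels carry no replicate numbers. Without replicates no spread between animals or arrays is known. Bright cytosolic probe sets lay near the top of the scale, and whether this affected their values was not tested. The effect of sequence shared with gene copies on the cytosolic values was not tested either.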

Other observations

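The translation lists did not follow the same days. Mitochondrial translation factors and assembly genes had a median log2 difference of 0.40 on day 10 against day 8 (12 of 16 positive, against 49.4% of all genes) and -0.04 on day 8 against day 6 (6 of 16 positive, against 55.3% of all genes), with Mterf3 at 0.52 and 0.15. The mTOR and tract regulators had a median of -0.54 on day 10 against day 8 (4 of 11 positive, 2 at least 2-fold lower, against 13.7% of all genes), or -0.09 with the gene length trend subtracted, and 0.19 on day 8 against day 6 (9 of 11 positive). Eif4ebp2 was at -1.08 and -0.07 in those comparisons. The ribosome biogenesis genes had medians of 0.11 (24 of 40 positive) and 0.05 (22 of 40 positive), the second of which turned to -0.04 with that trend subtracted, with Ddx21 at -1.31 and 0.32. The cytosolic translation factors had medians of 0.01 (-0.06 with the trend subtracted) and -0.07, with Eef1a2 at 1.26 and -0.47. Both comparisons use the day 8 array, so a value that is off on that array enters them with opposite signs.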
